A study of Saccharomyces cerevisiae with 4 samples.

Results

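Peroxisomes are the only site of fatty acid beta-oxidation in budding yeast, and this account follows the genes that run the pathway and build the organelle. The set holds 38 genes chosen by function, out of 5449 Saccharomyces cerevisiae genes tested: 14 for beta-oxidation enzymes, redox shuttles and transport, and 24 PEX genes for peroxins, the proteins that assemble peroxisomes. Each gene was read from the probe set annotated to it, and none of the 38 had more than 1. All 38 probe sets carry the suffix that Affymetrix gives to sets meant to match a single transcript. The signals of all 38 lay above background on all 4 arrays, by at least 0.86 on the log2 scale.

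All cultures were the haploid strain W1588-4c, of mating type MATa, which carries the alleles ade2-1 and can1-100, his3-11,15 and leu2-3, 112, trp1-1 and ura3-1, and RAD5+. Cells grew at 30 °C in synthetic complete medium with 2% glucose until the optical density was about 1. The untreated group of 2 arrays had no agent, and the labels give it no time. The allyl alcohol group of 2 arrays received 0.4 mM of this unsaturated alcohol for 3 h; yeast alcohol dehydrogenases convert it to the reactive aldehyde acrolein. The labels call the 2 samples of a group independent experiments.

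At the first step of each beta-oxidation cycle an acyl-CoA oxidase passes electrons straight to oxygen and makes hydrogen peroxide, and later enzymes hydrate, oxidise and cleave the chain to acetyl-CoA. Matrix enzymes are imported folded from the cytosol by peroxins that recognise, dock, ubiquitinate and recycle the import receptors. In yeast the enzyme genes are repressed by glucose and induced by oleate through the factors Oaf1 and Pip2 together with Adr1. The cultures here were grown on glucose and no fatty acid is named in the labels.

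The arrays did not sort by label. Among the 38 genes the median absolute log2 difference was 0.84 for the untreated pair of arrays and 0.94 for the allyl alcohol pair. Pairs of different label came closer: untreated replicate 1 with allyl alcohol replicate 2 gave 0.10, and untreated replicate 2 with allyl alcohol replicate 1 gave 0.19. Over all genes these 4 medians were 0.75, 0.81, 0.09 and 0.14. Every sample is therefore named by its label only, and every difference between groups is that of the labels. Whether a label of each group was exchanged was not tested; if so, the differences by label below would not be those of the treatment. The poly-A labelling controls were also higher on this last pair of arrays. Their median differences were 0.88 within the untreated label and 1.14 within allyl alcohol. Hybridization controls differed by 0.20 and 0.14 in that order. The ACT1 3 prime minus 5 prime signal, a check of RNA quality, was 0.19, 0.27, 0.22 and 0.18 on untreated replicates 1 and 2 and allyl alcohol replicates 1 and 2. The 7 mating type a markers had median differences of -2.12 and -2.07 within the same labels. Among them ASG7 differed by -0.24 and 0.22, and the other markers were lower in both labels. Of those 7 markers 4 were at least 2-fold lower in both labels, beside 15.8% of all genes. The median signal of the 7 was 12.37, 10.64, 10.59 and 12.27 on untreated replicates 1 and 2 and allyl alcohol replicates 1 and 2. The 3 mating type alpha markers had median signals of 9.08, 8.66, 8.55 and 9.0 in that order, which are those of STE3 (differences of -0.42 and -0.45). MF(ALPHA)1 (0.79 and 0.82) and MF(ALPHA)2 (0.57 and 0.82) went the other way, so the median differences of the list were 0.57 and 0.82. None of the 3 was at least 2-fold apart in the same order in both labels, beside 34.4% of all genes. All 7 and all 3 markers were above background on all arrays. In bulk cultures fewer cells of a kind and less RNA per cell cannot be told apart. The part of these controls and markers in the results below was not tested.

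Compared by label, the genes of beta-oxidation showed no called change after allyl alcohol. For POX1 (YGL205W), the acyl-CoA oxidase that opens each cycle, untreated replicates 1 and 2 gave log2 signals of 7.13 and 9.51, and allyl alcohol replicates 1 and 2 gave 9.37 and 6.63. FOX2 (YKR009C), whose product carries out the hydration and the second oxidation, had 11.32 and 12.72 in untreated and 12.63 and 11.28 in allyl alcohol samples. POT1 (YIL160C), the ketoacyl-CoA thiolase that releases acetyl-CoA, had 7.69 and 10.15, then 10.24 and 7.23. In each of these core genes the groups overlapped, and both held 1 high and 1 low array. The group means of POX1 were 8.32 ± 1.68 and 7.998 ± 1.94 (SD, n = 2), so that the groups differed by -0.32 (log2, standard error 1.37), with a limma adjusted p = 1. The differences of FOX2 and POT1 were -0.07 and -0.18, with standard errors of 0.78 and 1.47.

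The auxiliary enzymes, which handle unsaturated or medium-length chains, were spread less. FAA2 (YER015W), the peroxisomal acyl-CoA synthetase for medium chains, had log2 signals of 9.10 and 8.84 in untreated and 8.54 and 9.05 in allyl alcohol samples. ECI1 (YLR284C), an enoyl-CoA isomerase that shifts double bonds, had 9.31 and 8.38, then 8.88 and 9.19. DCI1 (YOR180C), a relative of ECI1, had 7.73 and 8.18, then 7.86 and 7.23. In all 3 genes the groups overlapped. SPS19 (YNL202W), the dienoyl-CoA reductase that needs NADPH, had 9.92 and 9.06, then 9.003 and 9.96, so its high arrays were the low arrays of POX1, FOX2 and POT1. Their differences by label were -0.18, 0.19, -0.40 and -0.01.

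The redox shuttle pair behaved differently from each other. IDP3 (YNL009W), the isocitrate dehydrogenase that supplies NADPH inside peroxisomes, had 8.43 and 8.25 in untreated and 8.72 and 8.64 in allyl alcohol samples. It was the 1 member of 38 whose groups did not overlap, against 5.23% of all genes tested, and that share lies near the background. Its group means were 8.34 ± 0.13 and 8.68 ± 0.06 (SD, n = 2), so that the groups differed by 0.34 (log2, standard error 0.32), with a 95% interval from -0.57 to 1.26 and a limma adjusted p = 1. The difference was between 0.25 and 0.43 when any 1 array was left out. Its sign could not turn there, because the groups did not overlap. MDH3 (YDL078C), the malate dehydrogenase that reoxidises peroxisomal NADH, had 12.86 and 11.84, then 11.65 and 12.86, with overlapping groups and a difference of -0.09.

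Carriers of fatty acyl, nucleotide and acetyl units included the gene with the widest spread in the set. CRC1 (YOR100C), the mitochondrial carrier that exchanges acetylcarnitine for carnitine, had 7.24 and 10.80 in untreated and 10.74 and 6.49 in allyl alcohol samples. CAT2 (YML042W), the carnitine acetyltransferase of peroxisomes and mitochondria, had 9.48 and 11.07, then 11.09 and 9.16. Both genes had untreated replicate 2 and allyl alcohol replicate 1 as their high arrays, and their groups overlapped. The group means of CRC1 were 9.02 ± 2.51 and 8.61 ± 3.00 (SD, n = 2), and its difference of -0.41 had the largest standard error among the 38 genes, 2.06. Leaving out 1 array turned its sign: the difference was -2.19 without untreated replicate 1 and -2.53 without allyl alcohol replicate 1, and 1.37 without untreated replicate 2 and 1.71 without allyl alcohol replicate 2.

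PXA1 (YPL147W) and PXA2 (YKL188C) encode the partner subunits of the ABC transporter that brings long-chain acyl-CoA into peroxisomes. PXA1 had 9.56 and 10.72 in untreated and 10.86 and 9.38 in allyl alcohol samples. PXA2 had 8.59 and 9.77, then 9.96 and 8.57. Both subunits thus had the same order of arrays and differences by label of -0.02 and 0.08. ANT1 (YPR128C), the adenine nucleotide carrier that feeds ATP to acyl-CoA synthesis in the matrix, ran the other way, with 11.48 and 10.66, then 10.29 and 11.41, and a difference of -0.22.

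**Figure D1:**
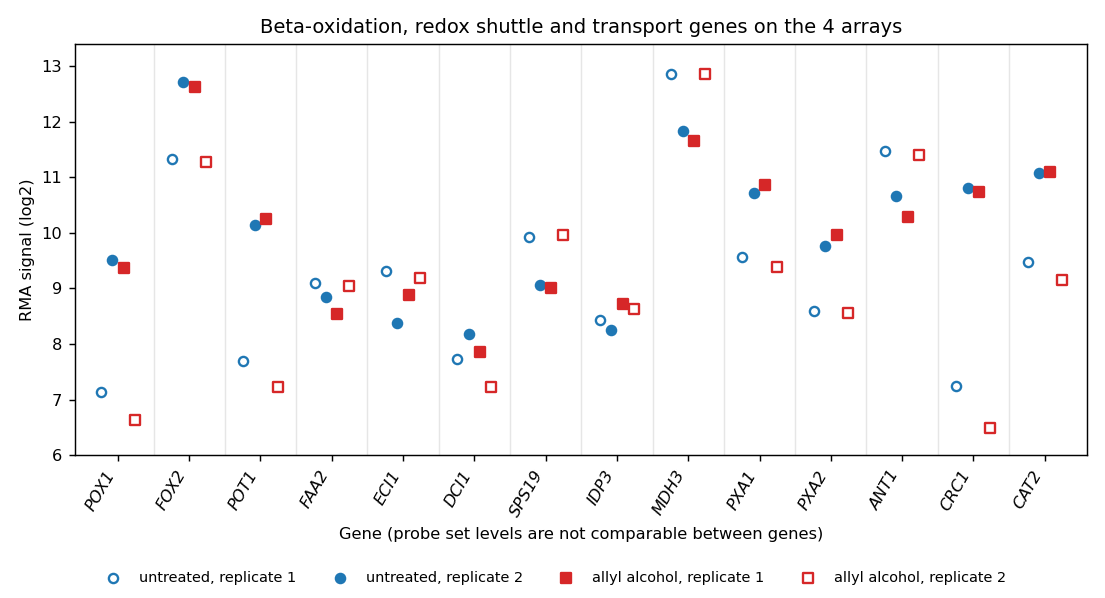
Log2 RMA signal (y axis) of the 14 beta-oxidation, redox shuttle and transport genes (x axis) on each array; blue circles are untreated, red squares allyl alcohol, open symbols untreated replicate 1 and allyl alcohol replicate 2, and filled symbols the other arrays. Filled and open symbols stand apart in POX1, POT1, CRC1 and CAT2, with blue and red in each cluster, and IDP3 is the 1 gene whose blue and red symbols do not overlap.

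The PEX genes likewise showed no called change by label. In membrane assembly, PEX19 (YDL065C), the chaperone of new membrane proteins, had 9.50 and 11.24 in untreated and 10.84 and 9.08 in allyl alcohol samples. PEX3 (YDR329C), its docking partner, had 10.00 and 10.27, then 10.13 and 9.88. PEX19 was thus far apart inside each label where its partner PEX3 was close, and the differences by label were -0.41 and -0.13. The largest absolute difference by label among the 38 genes was that of PEX19, with a standard error of 0.96.

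Among the import receptors, PEX5 (YDR244W), which binds the C-terminal targeting signal carried by most matrix enzymes, had 9.69 and 10.65, then 10.26 and 9.56. PEX7 (YDR142C) binds the rarer N-terminal signal, which the thiolase Pot1 carries, and had 10.75 and 11.51, then 11.48 and 10.94. Both receptors had their higher signals in untreated replicate 2 and in allyl alcohol replicate 1, by less than 2-fold. The co-receptors of PEX7 were further apart than PEX7 itself inside both labels: PEX21 (YGR239C) had 8.76 and 10.66, then 10.40 and 8.80. PEX18 (YHR160C) had 6.90 and 7.78, then 8.02 and 6.56. All 4 genes had overlapping groups, with differences by label between -0.26 and 0.08.

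The docking complex did not share 1 pattern. PEX14 (YGL153W), the main docking protein, had 9.91 and 10.99 in untreated and 10.99 and 9.93 in allyl alcohol samples. PEX13 (YLR191W), its partner, had 10.35 and 10.08, then 9.92 and 10.33, and PEX17 (YNL214W), the third subunit, had 8.57 and 8.45, then 8.76 and 8.47. PEX14 was high where PEX13 was slightly low, and PEX17 was close on all arrays. PEX8 (YGR077C), which links docking to the ubiquitin ligases from inside the organelle, had 11.74 and 10.73, then 10.70 and 11.72, the reverse order of PEX14.

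The ubiquitin machinery that recycles the receptors held the PEX gene with the widest spread. PEX2 (YJL210W), a RING ligase subunit, had 11.13 and 8.85 in untreated and 9.12 and 10.95 in allyl alcohol samples. PEX10 (YDR265W), another RING subunit of the same complex, had 10.13 and 11.31, then 11.22 and 10.23. These subunits had opposite orders of arrays inside both labels. PEX4 (YGR133W), the conjugating enzyme, had 8.999 and 8.31, then 8.16 and 9.12, and PEX22 (YAL055W), its membrane anchor, had 9.32 and 9.71, then 9.94 and 9.26. Anchor and enzyme also ran opposite ways, by less than 2-fold. PEX2 had a difference by label of 0.05 (standard error 1.12), which became 1.19 without untreated replicate 1 and -1.09 without untreated replicate 2.

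For receptor export, PEX6 (YNL329C), an ATPase that pulls receptors from the membrane, had 10.28 and 10.11, then 9.65 and 10.39. PEX15 (YOL044W), its membrane anchor, had 10.27 and 11.03, then 11.11 and 10.31. In untreated replicate 2 and in allyl alcohol replicate 1 PEX15 was the higher and PEX6 the lower, both by less than 2-fold.

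Among proliferation genes, PEX11 (YOL147C), which elongates the membrane before division, had 12.01 and 11.40, then 11.07 and 11.99. Its relatives PEX25 (YPL112C) and PEX27 (YOR193W) stood in the other order: PEX25 had 10.85 and 11.61, then 11.45 and 10.95. PEX27 had 9.62 and 10.33, then 10.03 and 9.52. All 3 were less than 2-fold apart inside each label.

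Of the genes that set peroxisome size and number, PEX30 (YLR324W), a membrane-shaping protein of the endoplasmic reticulum, had 9.86 and 11.43, then 11.46 and 9.81. Its relative PEX31 (YGR004W) had 9.91 and 9.67, then 9.87 and 9.84, and PEX32 (YBR168W), of the same group, had 10.28 and 9.69, then 9.31 and 10.09. These 3 related genes were high, level and low on the same arrays. The other pair, PEX28 (YHR150W) and PEX29 (YDR479C), differed by between 0.23 and 0.67 inside the labels and by -0.09 and -0.07 between them.

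**Figure D2:**
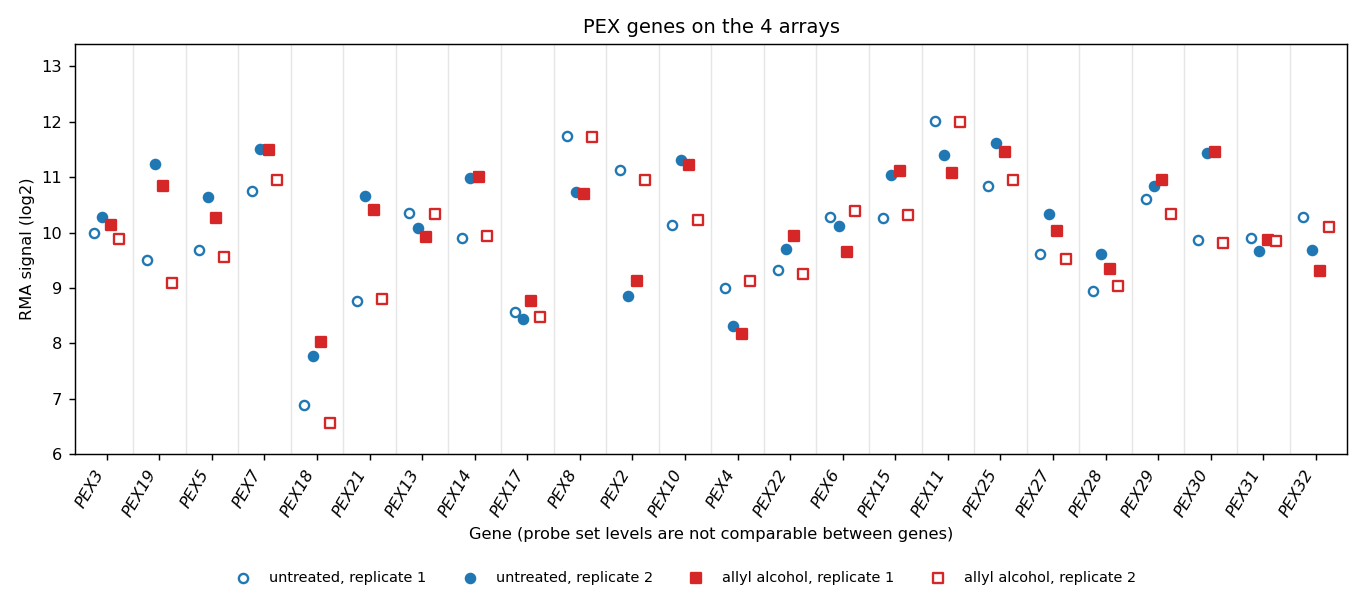
Log2 RMA signal (y axis) of the 24 PEX genes (x axis) on each array, with symbols as for the enzyme genes: blue circles untreated, red squares allyl alcohol, open for untreated replicate 1 and allyl alcohol replicate 2. In no PEX gene do blue and red symbols separate; filled symbols lie above open ones in PEX19, PEX21, PEX14 and PEX30 and below them in PEX2 and PEX8.

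Enzyme and peroxin genes were then compared as classes. The median log2 difference, allyl alcohol minus untreated, was -0.12 for the 14 enzyme and transport genes and -0.04 for the 24 PEX genes, beside -0.02 for all 5449 genes. Of the enzyme class 3 had positive and 11 negative differences, and of the PEX class 8 and 16. All genes leaned the same way, with 2288 positive and 3160 negative. At an adjusted p of 0.05, in either direction, limma called 0 of the 38 genes and 0% of all genes. Unadjusted limma p-values under 0.05 were found for 0 of the 38 genes and for 0 of all genes. The smallest unadjusted limma p among the 38 was 0.350, that of IDP3, and the smallest adjusted p was 1. Every 95% interval of the 38 included 0, and the half-widths ran from 0.92 to 5.92, with a median of 1.53. In 31 of the 38 genes the interval held both a 2-fold rise and a 2-fold fall. An exact permutation test of 2 against 2 samples cannot give a two-sided p below 0.333.

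These class medians rested on single arrays. The enzyme class had medians of -0.55 without untreated replicate 1 and -0.67 without allyl alcohol replicate 1, but 0.40 without untreated replicate 2 and 0.49 without allyl alcohol replicate 2. The PEX class moved the same way over a narrower range, with -0.28, -0.25, 0.19 and 0.15 in that order.

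**Figure D3:**
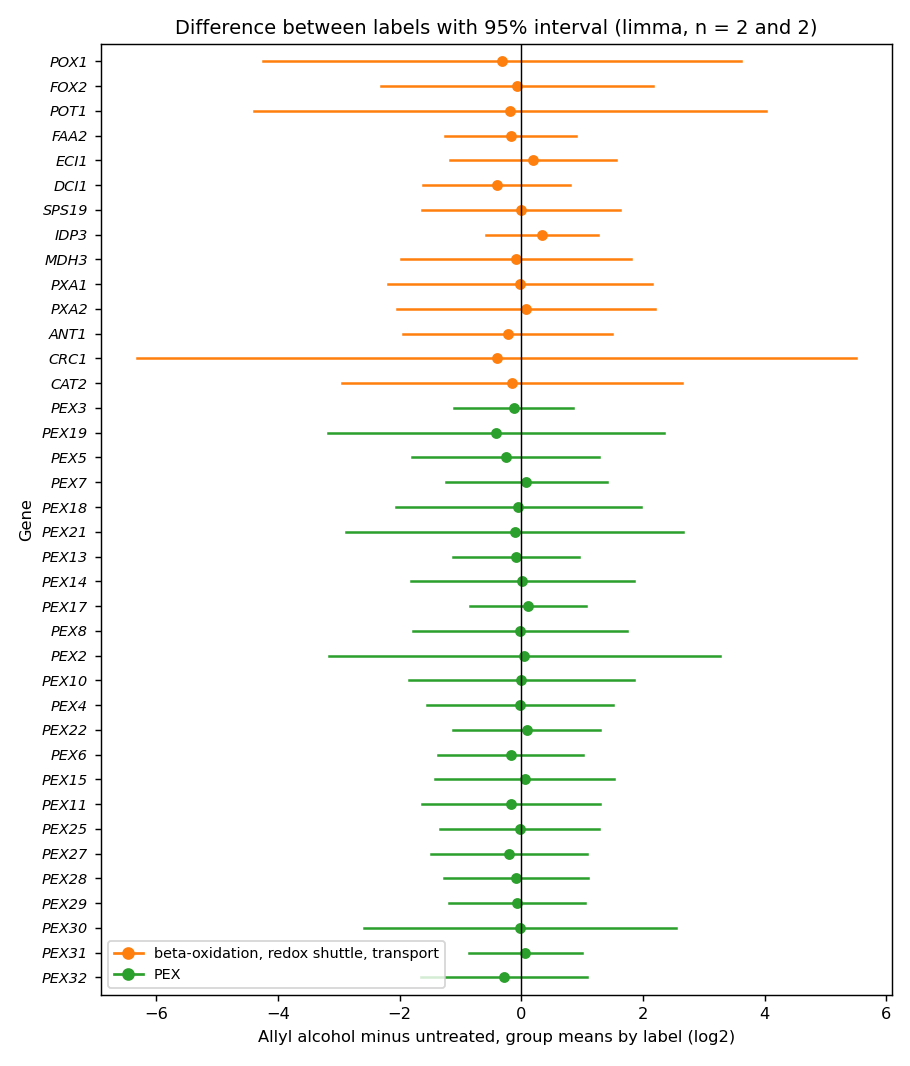
Log2 difference of group means by label, allyl alcohol minus untreated (x axis), with 95% limma intervals (lines) for each of the 38 genes (y axis); orange marks enzyme and transport genes and green PEX genes. Every interval crosses 0, and CRC1 has the widest, from -6.32 to 5.51.

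Inside the labels the classes stood further apart. Differences are given as untreated replicate 2 minus replicate 1 and as allyl alcohol replicate 1 minus replicate 2. They compare single arrays and carry no test, and the order of subtraction was chosen with earlier results of these arrays known. In 30 of the 38 genes both differences were larger than either of those between the nearest arrays of different labels. The others were FAA2, ECI1, DCI1, IDP3, PEX6, PEX17, PEX29 and PEX31. That share was not counted over all genes, so whether it is particular to this set is not known. The median absolute differences of all genes had the same order, with 0.75 and 0.81 inside the labels and 0.09 and 0.14 between the nearest arrays. Counting both directions, 14 of the 38 genes were at least 2-fold apart in this order in both labels, beside 34.4% of all genes. Of the enzyme and transport genes 7 of 14 were at least 2-fold higher in both labels, where 18.6% of all genes were, and 1 was at least 2-fold lower in both, where 15.8% of all genes were. Of the PEX genes 4 of 24 were at least 2-fold higher in both, or 16.7%, and 2 were lower, or 8.33%. The higher share of the PEX genes was near that of all genes.

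The 7 higher genes of the first class were the core cycle, the acyl-CoA transporter and the acetyl export route. CRC1 differed 11.8-fold inside untreated and 18.9-fold inside allyl alcohol, POT1 5.52-fold and 8.11-fold, and POX1 5.20-fold and 6.67-fold. CAT2 differed 3.03-fold and 3.81-fold, FOX2 2.64-fold and 2.54-fold, PXA1 2.24-fold and 2.78-fold, and PXA2 2.26-fold and 2.62-fold. MDH3 was the lower gene, 2.02-fold and 2.32-fold. ANT1, 1.77-fold and 2.17-fold lower, and SPS19, 1.82-fold and 1.94-fold lower, lay just outside the limit. The pathway thus did not stand higher as a whole: oxidase, hydratase-dehydrogenase, thiolase, acyl-CoA import and acetylcarnitine export were high on arrays where the malate dehydrogenase was low and where the medium-chain synthetase FAA2 differed by -0.26 and -0.52.

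The 4 higher PEX genes were PEX21 (3.74-fold and 3.03-fold), PEX19 (3.34-fold and 3.39-fold), PEX30 (2.97-fold and 3.14-fold) and PEX14 (2.11-fold and 2.09-fold). The lower ones were PEX2 (4.85-fold and 3.57-fold) and PEX8 (2.02-fold and 2.02-fold). PEX10, 2.26-fold and 1.99-fold higher, and PEX18, 1.84-fold and 2.76-fold higher, passed the limit inside 1 label only.

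Median differences inside untreated and inside allyl alcohol were 0.80 and 0.99 for the enzyme and transport genes and 0.53 and 0.50 for the PEX genes, beside 0.04 and -0.00106 for all genes. With genes quantile normalized anew the PEX medians were 0.34 and 0.45, and the enzyme class stood 0.32 and 0.27 above them, beside 0.27 and 0.48 as deposited. Taken without sign, the medians were 1.09 and 1.28 for the first class, 0.74 and 0.76 for the PEX genes and 0.75 and 0.81 for all genes. The absolute spread of the PEX genes was therefore about that of all genes, and that of the enzyme class was wider. By role, the 5 transport and acetyl transfer genes had the highest medians, 1.18 and 1.47. Of these 5 genes 4 were at least 2-fold higher in both labels, beside 18.6% of all genes. The 2 membrane assembly genes had 1.01 and 1.01, the 4 receptors and co-receptors 0.92 and 1.08, and the 3 proliferation genes 0.71 and 0.50. The 7 beta-oxidation enzymes had 0.45 and 0.63, and the 2 receptor export genes 0.30 and 0.03. The 5 size and number genes had 0.23 and 0.32, and the 4 ubiquitin genes -0.15 and -0.14. The 4 docking genes had -0.20 and -0.06, and the 2 redox shuttle genes -0.60 and -0.56.

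**Figure D4:**
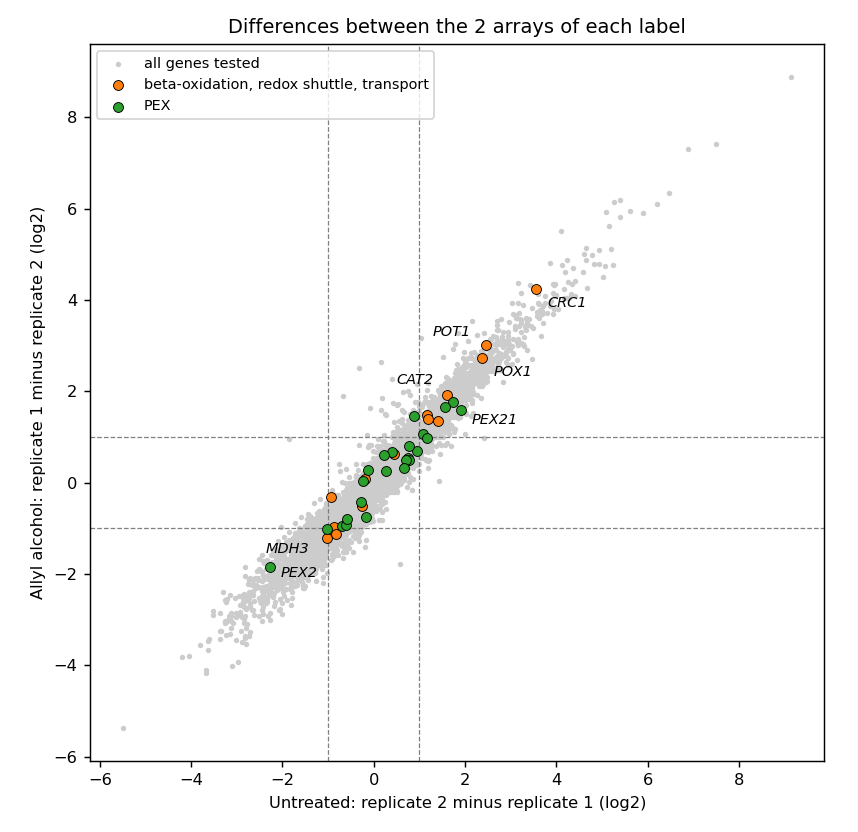
Each point is a gene, placed by its log2 difference between the untreated arrays (x axis, replicate 2 minus 1) and between the allyl alcohol arrays (y axis, replicate 1 minus 2); grey shows all 5449 genes, orange the enzyme and transport genes, green the PEX genes, and dashed lines the 2-fold limit. CRC1, POT1 and POX1 lie furthest up among the 38 genes and PEX2 furthest down.

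Related genes were read from lists chosen by function. Among 12 other enzymes found in the peroxisome matrix or at work beside it, 5 were at least 2-fold higher in both labels (41.7%, beside 18.6% of all genes) and 0 lower, with medians of 0.38 and 0.47. CTA1, the catalase that destroys the hydrogen peroxide made by Pox1, had log2 signals of 6.81 and 10.44 in untreated and 10.68 and 6.76 in allyl alcohol samples, a difference of 12.3-fold and 15.2-fold. STR3, a peroxisomal cystathionine beta-lyase of methionine synthesis, differed 21.3-fold and 21.5-fold, PCD1, a nucleotide diphosphatase for coenzyme A, 4.06-fold and 6.41-fold, and LYS1, saccharopine dehydrogenase, 3.92-fold and 4.70-fold. The remaining one was MLS1, malate synthase, at 3.37-fold and 4.87-fold. The thioesterase gene TES1, by contrast, differed by -0.75 and -0.63. A further peroxin gene, PEX34, had 10.75 and 9.78, then 9.46 and 10.63.

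Upstream of the pathway, 1 of 8 regulators of the oleate and glucose-derepression response was at least 2-fold higher in both labels and 0 were lower, beside 18.6% and 15.8% of all genes. OAF1, the oleate-sensing factor, differed 2.34-fold and 2.33-fold. Its partner PIP2 differed by 0.32 and 0.04, and ADR1, the derepression factor, by 0.58 and 0.79. The glucose repressor MIG1 was 1.96-fold and 2.16-fold higher.

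Of 5 genes of fatty acid uptake and activation outside the set, 0 were at least 2-fold higher in both labels (18.6% of all genes) and 1 was lower (15.8%), so the count is near that of all genes. Their medians were -0.63 and -0.78, and FAA3 had 0.24 and 0.24. FAA4, a long-chain acyl-CoA synthetase, was 2.14-fold and 2.46-fold lower, and FAA1, the other main one, 1.68-fold and 1.74-fold lower. Of 2 carnitine acetyltransferases outside peroxisomes, 1 was at least 2-fold higher in both labels (18.6% of all genes) and 0 were lower (15.8%). It was YAT2, 3.53-fold and 4.23-fold higher, and CAT2 was also higher. YAT1 was 1.38-fold and 1.82-fold higher. Of 9 genes for division, inheritance and selective degradation of peroxisomes, 2 were higher and 0 lower, a share of 22.2% beside 18.6% of all genes: ATG36, the receptor for pexophagy, at 3.59-fold and 3.35-fold, and ATG11, the adaptor it binds, at 3.72-fold and 3.60-fold. INP1 and INP2, which hold peroxisomes in the mother cell and carry them to the bud, differed by 0.31 and 0.72 and by 0.15 and 0.17. By label, 0 of these 37 genes were called in limma, unadjusted p-values under 0.05 numbered 0, and 1 gene had groups that did not overlap, beside 5.23% of all genes. It was the fission factor gene FIS1, which was chosen after its values were seen (11.25 and 11.26, then 11.08 and 11.04).

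**Figure D5:**
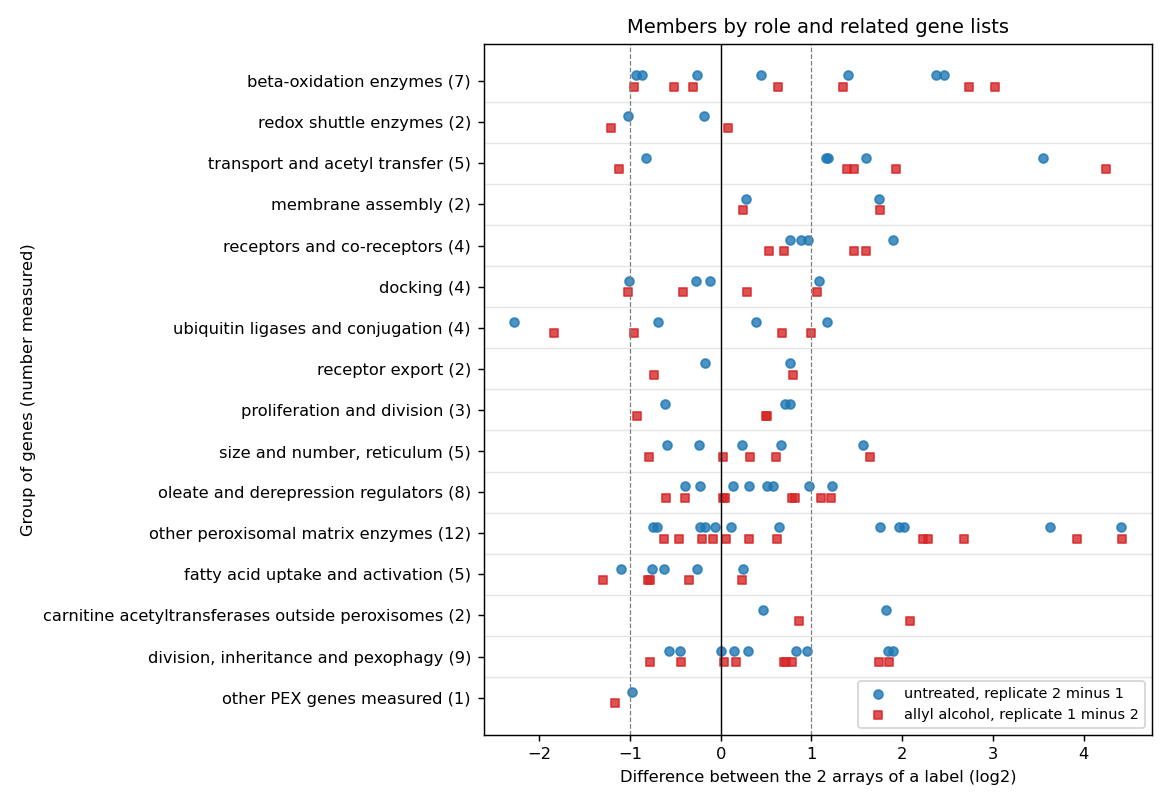
Log2 differences between the arrays of a label (x axis), with blue circles for untreated replicate 2 minus 1 and red squares for allyl alcohol replicate 1 minus 2, for the 38 genes by role and for the related lists (y axis, number measured in brackets); dashed lines mark 2-fold. Most transport genes, the receptors and 5 other matrix enzymes lie to the right, and fatty acid uptake and activation genes mostly to the left.

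The array also holds probe sets for fission yeast, Schizosaccharomyces pombe, and 6 of these are annotated to its peroxins pex5, pex6, pex7, pex11, pex13 and pex14. Their log2 signals lay between 3.57 and 5.30 on all arrays. All of these values were below the background of their array, which these probe sets helped to set.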

How the data were processed

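The authors deposited 1 value for each of 10928 probe sets and 4 arrays, read here as log2 RMA signals since they lay between 2.78 and 14.75. RMA and Affymetrix Expression Console were used, per the submitters' processing notes, which name no version. RMA makes the overall distribution alike between arrays, so a general change in mRNA is removed in part. Gene symbols follow RefSeq for assembly R64, and the brightest probe set stood for a gene. Background was the 95th percentile of 1746 probe sets named outside RefSeq for S. cerevisiae, between 5.28 and 5.64 on an array, and the number of arrays limits the precision. The labels were compared in limma 3.58.1 (R 4.3.3; lmFit and eBayes, no block, two-sided, Benjamini-Hochberg adjustment over 5449 genes at 0.05), which was tested on simulated data. Members and lists were chosen with earlier results of these data known; all 38 members are named, and up to 4 genes of a related list by their smaller difference inside the labels, beside a few chosen for their role. Without probe or gene sequences, none is shown. Alternatives were another probe set rule, scaling, filter, variance trend and fold limit, a replicate block and leaving out each array. Without a block, the p-values set the difference between labels against the spread between arrays of a label, which limma draws toward that of all genes. Arrays with the same number deviated from their group means in opposite ways, with correlations of -0.973 over all genes and -0.971 over the 38, so the numbers do not pair them.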

Additional observations from a re-analysis of the deposited data

How the results depend on the processing

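Limma called 0 of all genes and 0 of the 38 under every setting run: other probe set rule, scalings, filter, trend, replicate block, all probe sets and each array left out. The other probe set rule and the filter could not alter the differences by label of the 38, whose only probe sets were above background. With the replicate block 0 genes were called. A block pairing the arrays crosswise, chosen after seeing the data, called 0 genes. Unadjusted p-values under 0.05 numbered 188 of 5449 genes with that block, 3 of them among the 38. Since the values themselves set that block, these p-values carry no weight as a test. Such p-values numbered 9 of 10928 probe sets when all were tested, and 0 under the other settings that kept all 4 arrays. Leaving out 1 array gave class medians by label from -0.67 to 0.49 for enzyme and transport genes, from -0.28 to 0.19 for PEX genes and from -0.41 to 0.34 for the first minus the second, and it turned the sign of 14 to 19 of the 38 genes. With genes quantile normalized anew, medians inside untreated and inside allyl alcohol were 0.34 and 0.45 for PEX genes. Inside allyl alcohol the median was 0.72 for enzyme and transport genes, and 0.27 for these minus PEX genes. Under that scaling 2 of the 38 genes had groups that did not overlap, IDP3 and DCI1 (-0.32). The share of all genes was not counted there, so this count has nothing to be set against. With arrays centred on the median gene the PEX medians were 0.46 and 0.47. Under either scaling the same genes of the 38 were at least 2-fold higher or lower in both labels as with the deposited values. Only PEX31 changed the sign of a difference inside a label, when centred. With a 1.5-fold limit 7 enzyme and transport genes were higher and 3 lower, and 8 PEX genes were higher and 5 lower. With a 3-fold limit 4 enzyme and transport genes were higher and 0 lower, and 2 PEX genes were higher and 1 lower. Shares of all genes were not counted at these limits, and the 2-fold shares given above do not apply to them. The limits alone set these counts; for the scalings the cause was not tested.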
